A study of Mus musculus with 104 samples.

Results

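Hepatocytes isolated from mouse liver and cultured without passage, here named primary mouse hepatocytes (PMH) and bought from a supplier, were transfected with the siRNA D6 at 50 nM and their RNA was sequenced 24 h later. D6 is a GalNAc-siRNA against Ttr, the mRNA of transthyretin, whose guide strand carries a glycol nucleic acid (GNA) isoguanosine, GNA-isoG, at position 6 (g6). The 4 libraries of D6 at 50 nM, out of 104 libraries in the series, were chosen by their treatment label and compared with the 8 libraries of mock-transfected cells, which went through transfection without siRNA. For the comparison between compounds, 4 libraries each of D4 and D5 at 50 nM were used. D4, the parent, has the same sequence without GNA, and D5 carries GNA-G at g6. D6 at 0.1, 1 and 10 nM, with 4 libraries each, gave the dose series. All cells were transfected with a lipid reagent in wells of a 384-well plate, so that uptake through the GalNAc ligand was not needed. The labels do not say whether replicates came from separate cultures or animals, and p-values therefore measure the spread between these libraries, which may be technical.

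The 4 libraries of D6 at 50 nM held 5119208, 5347196, 4907514 and 5251386 gene counts, and the 8 mock libraries held between 3409963 and 5308584. Levels are given as counts relative to library size (CPM, scaled so that the counts of a library sum to the same total) after trimmed mean of M-values (TMM) normalization, and changes as log2 fold changes from edgeR's quasi-likelihood test, with p-values adjusted over all genes tested. Hepatocyte markers were abundant in all 12 libraries, with a summed level of 24765 to 29360 CPM with D6 and 25021 to 30669 CPM in mock. Of 16 Kupffer cell and macrophage markers, 11 were at 0 in all 12 libraries, among them Adgre1, Clec4f and Ptprc, and the summed level of the 16 was 21.8 to 28.3 CPM with D6 and 16.5 to 23.5 CPM in mock, most of it Cd68. Of 13 endothelial markers 4 were at 0, among them Kdr and Cdh5, and the others were detected, led by Stab1, with a summed level of 5.64 to 11.5 CPM with D6 and 9.68 to 16.5 CPM in mock. Of 14 stellate cell and fibroblast markers 2 were at 0, Des and Colec11, and the others, led by Timp1, summed to 37.6 to 40.2 CPM with D6 and 39.7 to 48.6 CPM in mock.

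An siRNA guide strand loaded into Argonaute cleaves mRNAs that pair with it along most of its length. The same complex also binds mRNAs that pair only with the seed, guide positions 2 to 8, and lowers them in the way a microRNA does. GNA is an acyclic nucleic acid whose bases sit rotated in an RNA duplex, and placing one GNA nucleotide in the seed weakens seed pairing. GNA-isoG carries the hydrogen-bond donors and acceptors of guanine in exchanged places, which allows pairing with cytosine where GNA-G pairs poorly. Transthyretin itself is made by hepatocytes and secreted, and it carries thyroxine and, with retinol-binding protein, retinol.

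For the Ttr siRNAs a full seed match is CTCTATA, the complement of guide positions 2 to 8. A mer8 site has this match followed by an A, a mer7m8 site has CTCTATA alone, and a mer7A1 site has TCTATAA. The C opposite g6 is the third letter of CTCTATA. The windows below are 30 bases from the 3′-UTRs of 4 of the 8 mer8 genes with the largest decrease, read from GRCm39 along the mRNA, with the mer8 site in capitals. They show how little of each mRNA the seed match covers. The 3′-UTR of Otud4 also holds, outside this window, a longer stretch complementary to guide positions 7 to 19.
Uhmk1: gagctaacacaCTCTATAAccatttcttcc
C1galt1: attctttacttCTCTATAAtggctattacc
Gbp7: tataggtcactCTCTATAAattaatggcaa
Otud4: ctgataggcttCTCTATAAaagagtgtttt
The Uhmk1 window lies at chr1:170026693-170026722 on the minus strand, that of C1galt1 at chr6:7874060-7874089, that of Gbp7 at chr3:142252421-142252450 and that of Otud4 at chr8:80401527-80401556, these 3 on the plus strand. A mer8 site was found in the 3′-UTR of 3.05% of 20969 protein-coding genes, a mer7m8 site as the strongest match in 6.11% and a mer7A1 site in 9.29%, and 81.5% had none of the 3.

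Other mRNAs pair with the guide strand in its middle and not, or only in part, through the seed. The next windows hold the longest stretch of unbroken Watson-Crick complementarity to the guide in 4 genes that differ in their response, again 30 bases of GRCm39 along the mRNA. The stretch is in capitals.
Kpna6: ccaaacaaAGTGTTCTTGCTCTgacccata
Alg14: ctagagagAAAACAGTGTTCTTcggtggca
Unc119b: gcatcttcTGTTCTTGCTCTAgaagccatg
Clic1: cagctgccGTTCTTGCTCTATggcaccgaa
In Kpna6 (chr4:129541273-129541302, minus strand, 3′-UTR) the stretch covers guide positions 5 to 18, and in Alg14 (chr3:121158229-121158258, plus strand, 3′-UTR) it covers positions 10 to 23. In Unc119b (chr5:115262788-115262817, minus strand, 3′-UTR) it covers positions 4 to 16. In Clic1 (chr17:35271794-35271823, plus strand) it lies in coding sequence and covers positions 3 to 15.

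Ttr (ENSMUSG00000061808) was almost absent after D6 at 50 nM. The 4 D6 libraries had 9, 5, 4 and 7 Ttr counts, which is 1.73, 0.926, 0.805 and 1.32 CPM, whereas the mock libraries had 2421 to 3558 counts, with a lowest, median and highest level of 541, 677 and 728 CPM. Every D6 library lay far below every mock library. The log2 fold change was −9.08 ± 0.134 (SE, n = 4 and 8, edgeR adjusted p = 6.82e-32), a level 540-fold lower than in mock. With so few counts the residual level is imprecise, and the SE, which is taken from the test statistic, may understate this. Rbp4, which encodes the retinol-binding protein that travels with transthyretin, changed little, with 357, 383, 367 and 350 CPM with D6 and 379, 418 and 445 CPM (lowest, median, highest) in mock. Its log2 fold change of −0.18 passed the test (edgeR adjusted p = 6.11e-03), but the ranges overlapped. Alb, the mRNA of albumin, had a log2 fold change of 0.19 (edgeR adjusted p = 4.36e-03), also with overlapping ranges, and Gapdh had −0.10 (edgeR adjusted p = 0.100).

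Beyond Ttr, D6 at 50 nM was followed by many changes, most of them small. Of 11345 genes tested, 3572 (31.5%) had an edgeR adjusted p under 0.05, of which 1699 (15%) were higher and 1873 (16.5%) lower than in mock. The median absolute log2 fold change of these genes was 0.41, and 110 genes were higher and 228 lower by more than 1 on the log2 scale. The largest changes were thus more often decreases. Among 10737 protein-coding genes 1663 were higher and 1832 lower, and among 284 long non-coding RNA genes 24 were higher and 22 lower. CPM are relative values. When the ERCC spike-ins, RNAs added in fixed amounts, set the scale, the median log2 fold change of all genes moved from 0.01 to −0.15, and 241 genes were called higher and 1361 lower. Directions below are relative to the median gene, and a list or set with a small positive median can turn negative with the spike-ins. Such a turn goes with the shift of all genes, of which far fewer are then called higher.

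After Ttr, the largest decreases were those of Ltbp2, Lox, Tnnt2 and Igfbp1. Ltbp2, a latent TGF-beta binding protein, was at 1.16, 0.926, 0.201 and 0.564 CPM with D6 and at 3.92, 7.84 and 10.1 CPM (lowest, median, highest) in mock, a log2 fold change of −3.34 ± 0.33 (SE, edgeR adjusted p = 4.93e-10). Lox, the lysyl oxidase that cross-links collagen, fell by 2.72 on the log2 scale, and Tll1, a protease that processes procollagens, fell by 2.25. Tgfbr1, a receptor kinase for TGF-beta whose 3′-UTR has a mer7m8 site, was at 10.6, 9.81, 10.5 and 8.84 CPM against 35.3, 42.8 and 49.6 CPM in mock. In each of these 4 genes all D6 libraries lay below all mock libraries.

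Igfbp1, a secreted binding protein for insulin-like growth factors, is among the more abundant of these mRNAs. It was at 143, 139, 173 and 100 CPM with D6 and at 535, 701 and 882 CPM in mock, a log2 fold change of −2.31 ± 0.19 (SE, edgeR adjusted p = 2.99e-06). Igfbp7 fell by 2.28 on the log2 scale and the chemokine Ccl9 by 2.05, and both have a mer7A1 site. Kpna6, a nuclear import receptor of the importin alpha family, was at 32.0, 29.3, 34.8 and 29.3 CPM against 131, 144 and 157 CPM (log2 fold change −2.20 ± 0.072, SE, edgeR adjusted p = 1.24e-22), and Pi4k2b, a phosphatidylinositol 4-kinase, was at 41.8, 37.8, 51.1 and 42.7 CPM against 174, 189 and 215 CPM. Every D6 library of both lay far below the lowest mock library. Tnnt2, a troponin subunit, had a log2 fold change of −2.39 and Elmod1 one of −2.25. Of the 12 genes with the largest decrease under the conditions for naming, Ttr has a mer8 site, Tgfbr1 a mer7m8 site, Igfbp7 and Ccl9 a mer7A1 site, and the other 8 have none of the 3.

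The largest increases were those of Nckap5 (log2 fold change 3.62), Itgb4 and Epcam. Itgb4, the integrin subunit of hemidesmosomes, was at 35.8, 42.4, 35.8 and 35.9 CPM with D6 and at 2.32, 4.06 and 5.63 CPM in mock, a log2 fold change of 3.29 ± 0.14 (SE, edgeR adjusted p = 2.42e-19). Epcam, an epithelial cell adhesion molecule, was at 11.6, 10.6, 13.5 and 9.78 CPM against 0.592, 1.65 and 2.81 CPM (log2 fold change 2.67 ± 0.23, SE, edgeR adjusted p = 1.79e-11). All D6 libraries exceeded all mock libraries for both. Epcam is also a cholangiocyte marker, and the summed level of these markers, given with the other cell types, was higher with D6. Usp43 (2.50), Cnksr1 (2.40), Dennd2d (2.11) and Rcan2 (1.91) were among the 12 as well. The desmosomal plakophilin Pkp3 (log2 fold change 2.35), the tight junction proteins Marveld3 (2.15) and Cldn6 (1.79) and the membrane serine protease St14 (1.95) were also higher, from mock levels of a few CPM or less. Marcks, a substrate of protein kinase C that binds actin, was the most abundant of the 12, at 86.1, 90.3, 92.8 and 77.3 CPM against 15.1, 20.1 and 28.6 CPM in mock (log2 fold change 2.04). For Cldn6 the groups almost touched, with a lowest D6 library of 3.01 CPM and a highest mock library of 2.997 CPM.

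**Figure D1:**
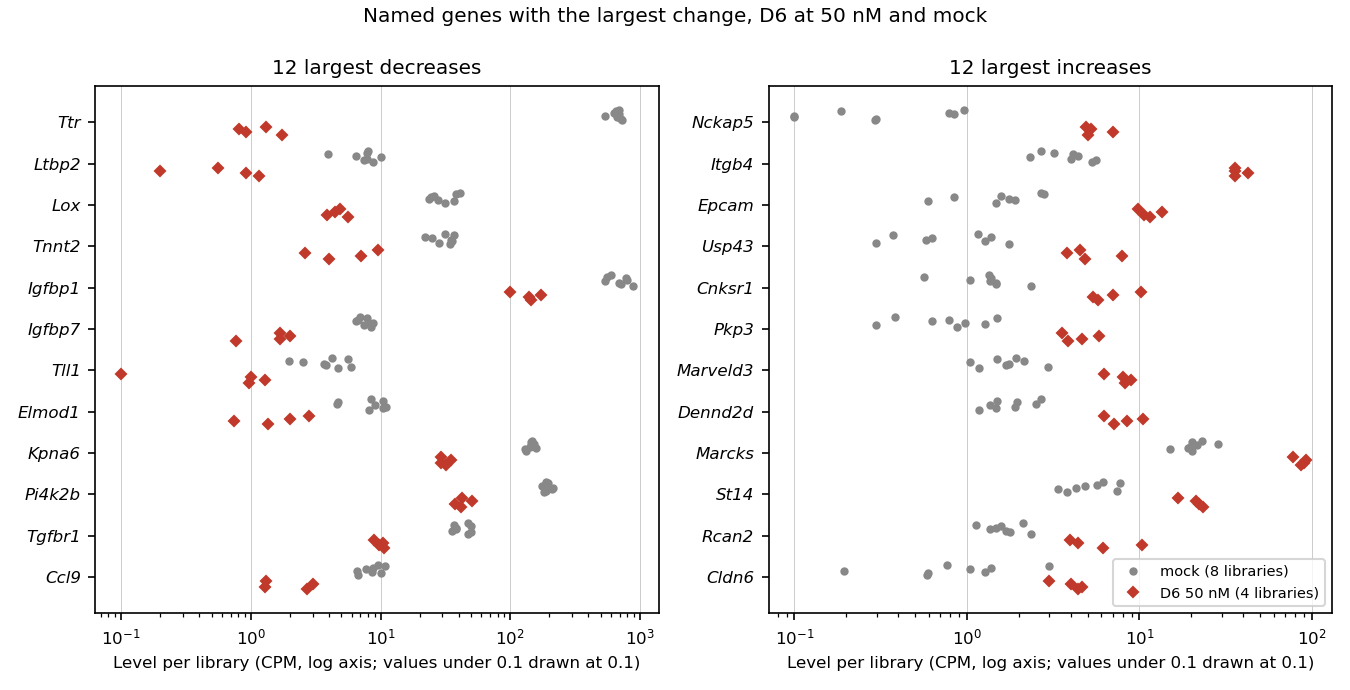
Level of each of the 12 genes with the largest decrease (left) and the largest increase (right) in CPM on a log axis, with 1 point per library (red diamonds, 4 libraries of D6 at 50 nM, grey circles, 8 mock libraries, values under 0.1 drawn at 0.1). The 24 genes were chosen without overlap between D6 and mock, and Ttr shows the widest gap, with D6 at 0.805 to 1.73 CPM and mock at 541 to 728 CPM.

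The other changes appeared at higher doses than the loss of Ttr. Ttr was at 663 ± 59.1 CPM in mock (SD, n = 8) and at 4.04 ± 1.37, 1.59 ± 0.703, 1.34 ± 0.344 and 1.19 ± 0.420 CPM (SD, n = 4 each) with D6 at 0.1, 1, 10 and 50 nM. At 0.1 nM, 6 genes differed from mock at an edgeR adjusted p under 0.05 (0.0532%), of which 1 (0.00886%) was higher and 5 (0.0443%) were lower. At 1 nM 240 genes differed (2.13%), 95 (0.842%) higher and 145 (1.28%) lower, and at 10 nM 2923 (25.8%), 1347 (11.9%) higher and 1576 (13.9%) lower. Thus most of the change in the number of genes came between 1 and 10 nM, where the level of Ttr moved by less than its SD. These comparisons share the 8 mock libraries.

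Single genes followed the dose. Kpna6 went from 144 ± 8.86 CPM in mock to 132 ± 5.37, 84.0 ± 3.03, 35.2 ± 3.77 and 31.3 ± 2.63 CPM at the 4 doses. Uhmk1, a kinase with a mer8 site, went from 280 ± 11.8 to 270 ± 18.8, 220 ± 27.4, 105 ± 5.18 and 85.2 ± 6.09 CPM. Igfbp1 went from 693 ± 124 to 741 ± 44.4, 589 ± 110, 191 ± 16.0 and 139 ± 29.8 CPM, so that only the 2 higher doses lay outside the spread of mock. Itgb4 stood at 3.95 ± 1.17 CPM in mock and at 4.78 ± 2, 8.53 ± 1.97, 44.5 ± 5.13 and 37.5 ± 3.27 CPM with D6, and Epcam at 1.70 ± 0.783 in mock and at 2.68 ± 0.900, 3.8 ± 1.2, 11.3 ± 3.06 and 11.3 ± 1.60 CPM. The increases of both had reached their 50 nM level at 10 nM, within the SD for Epcam.

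**Figure D2:**
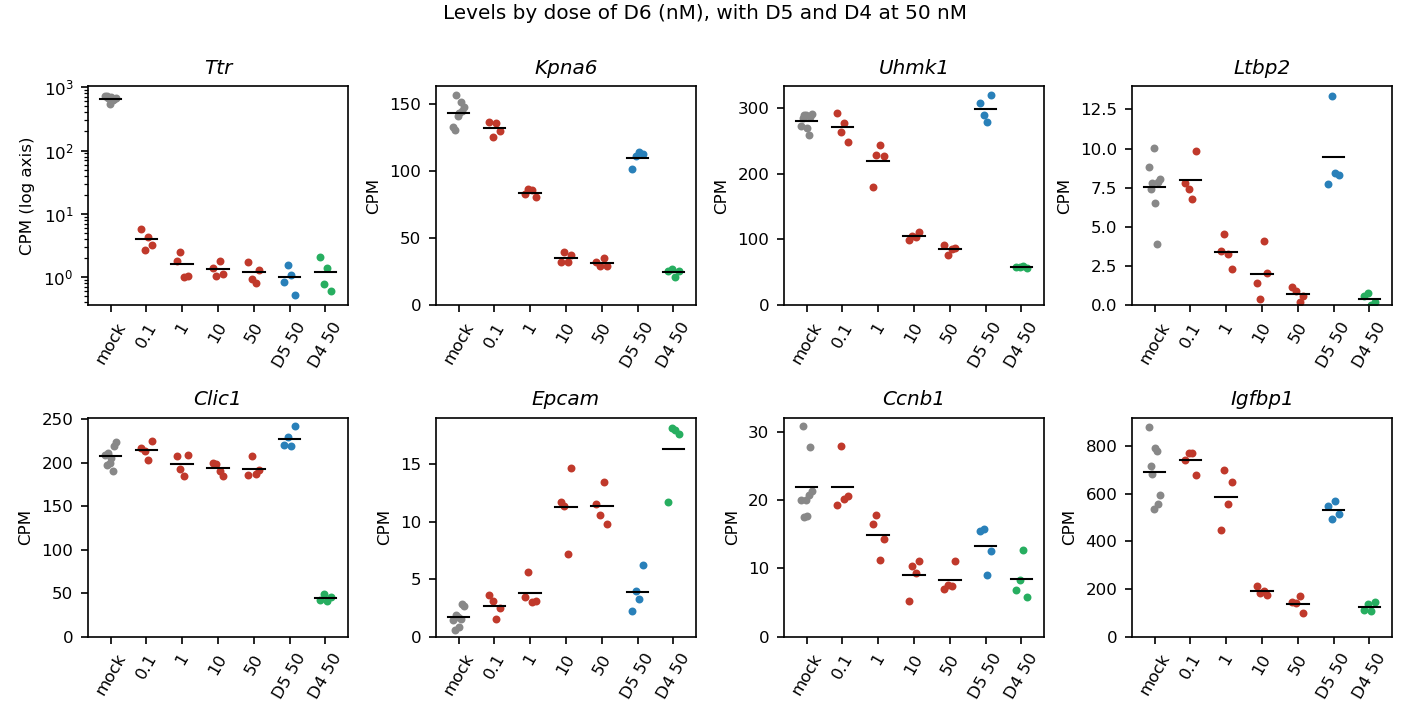
Levels in CPM of 8 genes (log axis for Ttr only) in mock, in D6 at 0.1, 1, 10 and 50 nM, and in D5 and D4 at 50 nM, with 1 point per library and a bar at the mean. Ttr is near its floor from the lowest dose, Kpna6, Uhmk1, Ltbp2 and Igfbp1 fall and Epcam rises mainly between 0.1 and 10 nM, and Clic1 is low only with D4.

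Genes with a seed match in the 3′-UTR were lower more often than other genes. Of 330 mer8 genes tested (of 639, Ttr left out), 117 (35.5%) were lower and 26 (7.88%) higher than in mock, against 14.6% lower and 16.4% higher of the 8544 genes with no match, and 16.5% and 15% of all genes tested. Of 716 mer7m8 genes, 24.3% were lower, and of 1121 mer7A1 genes 26.1%. The median log2 fold change was −0.12 for mer8, −0.04 for mer7m8, −0.05 for mer7A1 and 0.02 without a match. With the spike-ins as scale the medians were −0.28, −0.21, −0.22 and −0.14 in the same order. The change of a typical matched gene was therefore small beside the decreases named above, and most mer8 genes did not pass the test in that direction. Mer8 genes with 2 or more CTCTATA were lower in 40.3% of 62 and those with 1 in 34.3% of 268. Among genes with CTCTATA in the coding sequence but no match in the 3′-UTR, 20.3% of 408 were lower.

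The share of lower mer8 genes grew with the dose, from 0.302% at 0.1 nM and 4.85% at 1 nM to 29.4% at 10 nM, while that of all genes went from 0.0443% and 1.28% to 13.9%. Mer8 genes had longer 3′-UTRs (median 3332 bases) than genes without a match (1659 bases), and the shares were therefore also taken within classes of length. In 3′-UTRs of 1001 to 2000 bases 30.5% of 59 mer8 genes were lower, in those of 2001 to 4000 bases 33.8% of 133, and above 4000 bases 37.3% of 126. In the same length classes, genes with none of the 3 sites that held CTATA, the complement of guide positions 2 to 6, were lower in 17.5% of 1273, 16.9% of 2033 and 18.6% of 835, and genes without CTATA in 10.2% of 1079, 8.83% of 589 and 9.68% of 62. When the 3′-UTR of the canonical transcript alone was searched, the median of mer8 genes was −0.15.

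The 8 mer8 genes with the largest decrease code for proteins of different function. Uhmk1, a kinase that phosphorylates splicing factors, was at 91.5, 76.8, 85.9 and 86.5 CPM against 258, 285 and 291 CPM in mock, a log2 fold change of −1.71 ± 0.059 (SE, edgeR adjusted p = 3.94e-22). C1galt1, the enzyme that extends O-linked glycans, was at 54.3, 46.8, 56.1 and 53.2 CPM against 134, 161 and 171 CPM (log2 fold change −1.59 ± 0.070, SE, edgeR adjusted p = 4.05e-19). Arpc5, a subunit of the actin-nucleating Arp2/3 complex with 2 CTCTATA in its 3′-UTR, was at 141, 131, 141 and 159 CPM against 311, 341 and 381 CPM. The D6 libraries of all 3 lay below every mock library. The interferon-inducible GTPase Gbp7 (log2 fold change −1.41), the anti-apoptotic Bcl2l2 (−1.33), the mitochondrial carrier Slc25a40 (−1.27), the dystrophin gene Dmd (−1.20) and the deubiquitinase Otud4 (−1.19) completed this group. Arpc5 (guide positions 2 to 13), Bcl2l2 (5 to 16) and Otud4 (7 to 19) also have a longer complementary stretch elsewhere in the 3′-UTR. The part of each site in their decrease was not tested.

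**Figure D3:**
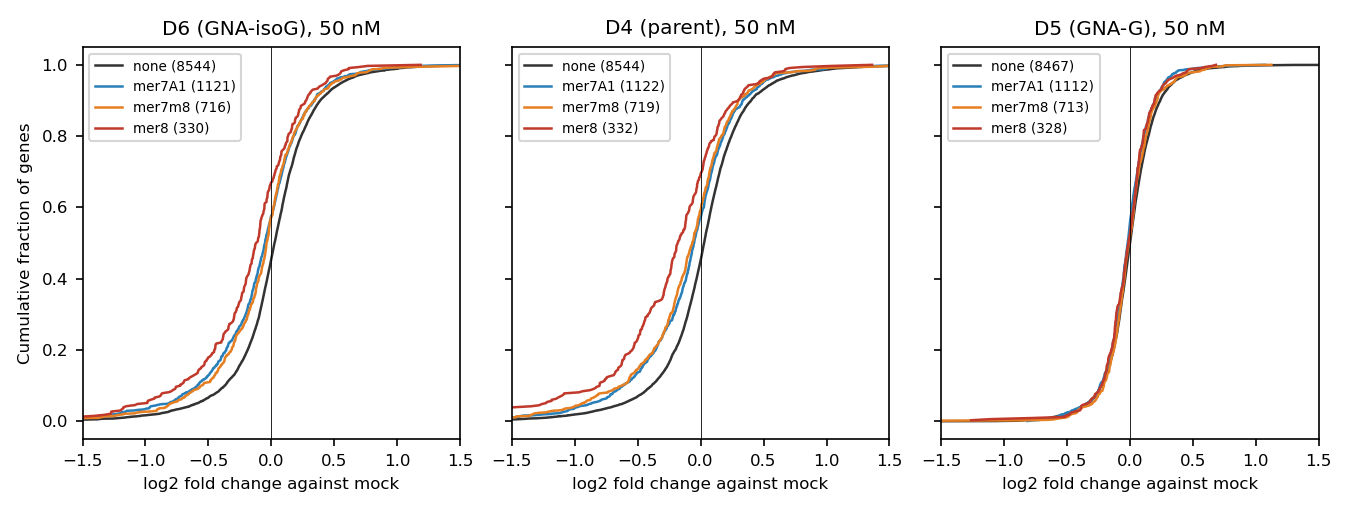
Cumulative fraction of genes (y) by log2 fold change against mock (x) for genes with a mer8, mer7m8 or mer7A1 site in the 3′-UTR and for genes with none of the 3, at 50 nM of D6, D4 and D5, with the number of genes tested in brackets and Ttr left out. The curve of mer8 genes lies left of that without a match for D6 (medians −0.12 and 0.02) and D4 (−0.18 and 0.03), and the curves nearly coincide for D5 (−0.01 and 0.00).

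The bases opposite g6 and opposite g7 were looked at after the values were seen, and these sets are given as a description. Sites with another base opposite g6 were taken among genes with none of the 3 matches. With CTATATA, which itself holds CTATA, 22.6% of 975 genes were lower after D6, with CTTTATA 18% of 1425 and with CTGTATA 16.3% of 1370. Among genes with TCTATA, the match to positions 2 to 7, and none of the 3 sites, 22.4% of 1716 were lower, against 17.0% of 1478 with ACTATA, 14.7% of 1358 with CCTATA and 15.8% of 1360 with GCTATA, each without TCTATA. The shares for CTATATA and for TCTATA were close, and the median 3′-UTR of both sets (2862 and 2762 bases) was longer than that of the other 3 sets with CTATA (2389 to 2417 bases) and like that of the CTGTATA (2779) and CTTTATA (2816) sets. Differences between these sets were not tested. The genes without CTATA had the lowest share, with 10.6% lower and 17.9% higher of 3815 genes and a median of 0.05. Their 3′-UTRs were also the shortest (median 892 bases). These motifs were searched on the mRNA strand only, and 14.0% of all 3′-UTRs held TCTATA and none of the 3 sites, 12.1% ACTATA, 11% CCTATA and 11.2% GCTATA without TCTATA, 7.92% CTATATA, 10.5% CTGTATA and 11.4% CTTTATA without the 3 sites, and 42.2% had no CTATA.

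The longest unbroken complementarity of each mRNA to the guide, wherever it lay, was looked at in the same way, also after the values were seen. Over all genes tested, 16.5% were lower and 15% higher than in mock by edgeR. With a longest stretch of 8 or 9 bases in the 3′-UTR 18.7% of 3672 genes were lower, with 10 bases 21.4% of 537, with 11 bases 24.4% of 135 and with 12 bases 31.8% of 44, of which 6 were higher. Of the 23 genes with 13 or more bases, 8 (34.8%) were lower and 0 higher. Where the stretch began at g6 or before, 11 of 27 genes with 12 or more bases in the 3′-UTR were lower and 0 higher, where it began at g7 to g9 8 of 20 were lower and 2 higher, and where it began at g10 or after 3 of 20 were lower and 4 higher. In coding sequence, 3 of the 13 genes with 12 bases were lower and 3 higher, and of the 5 with 13 or more 0 were lower and 1 higher. Many of these genes also have a seed site, and median 3′-UTR length went from 2722 bases with 8 or 9 paired bases to 3545 with 12. Without genes that have a mer8, mer7m8 or mer7A1 site, the share of lower genes was 15.7% of 2630 with 8 or 9 bases, 17.4% of 350 with 10, 15.7% of 83 with 11, 20.7% of 29 with 12 and 37.5% of 16 with 13 or more. In these genes the shares up to 12 bases thus lay near that of all genes. By start, 6 of 16 such genes were lower and 0 higher from g6 or before, 5 of 14 and 0 from g7 to g9, and 1 of 15 and 4 from g10 or after. The 3 lower genes with a stretch in coding sequence were Cct2, Rilp and Mrpl1.

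Kpna6 had the strongest decrease of the genes with such a stretch (positions 5 to 18). Alg14, a subunit of the enzyme that adds the second sugar of N-glycan precursors, was at 11, 11.1, 10.1 and 11.3 CPM against 21.6, 28.0 and 32.5 CPM in mock (log2 fold change −1.34 ± 0.12, SE, edgeR adjusted p = 7.10e-11), although its stretch begins only at position 10. Mmp24, a membrane-bound metalloproteinase (positions 6 to 17), was at 10.2, 12, 10.7 and 9.78 CPM against 17.8, 22.3 and 26.7 CPM, and Upf3a, a factor of nonsense-mediated decay (positions 6 to 18), at 16.0, 18.5, 13.3 and 14.3 CPM against 27.2, 30.9 and 34.3 CPM. Cct2, a subunit of the chaperonin that folds actin and tubulin, was at 316, 317, 312 and 339 CPM against 561, 596 and 616 CPM, with a stretch in coding sequence (positions 6 to 17). None of these 4 had D6 libraries within the range of mock. The longest stretches were not those with the largest decrease, since Phf21a and Zfp868, with 15 bases in the 3′-UTR, had log2 fold changes of −0.13 and 0.06 (edgeR adjusted p = 0.412 and 0.816).

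**Figure D4:**
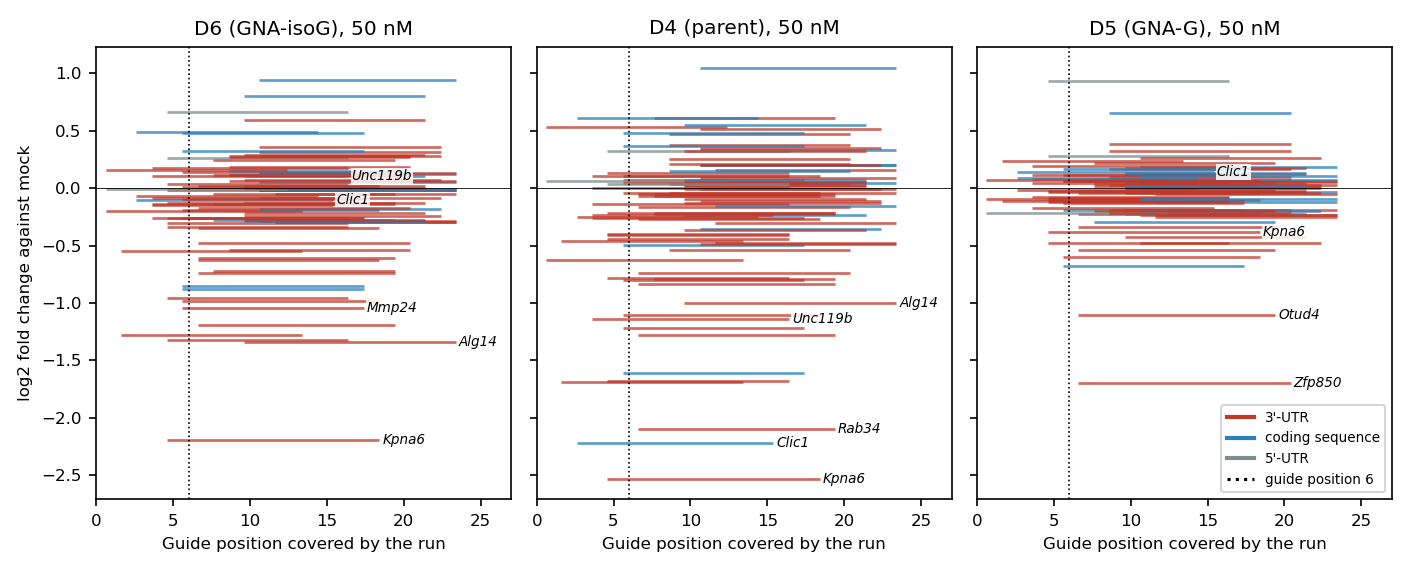
Log2 fold change against mock (y) of genes with an unbroken complementary stretch of 12 or more bases, drawn as a segment over the guide positions it covers (x), coloured by where it lies in the mRNA, at 50 nM of D6, D4 and D5, with g6 as a dotted line. Kpna6 is low with D6 and D4 (−2.20 and −2.53), Clic1 and Unc119b are low only with D4, and Otud4 and Zfp850, whose stretches begin at position 7, are the lowest with D5.

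At the same dose of 50 nM, D6 was set beside its parent D4 and beside D5. Against D4, 467 of 11159 genes tested (4.18%) differed at an edgeR adjusted p under 0.05, 247 (2.21%) higher and 220 (1.97%) lower with D6. Against D5, 2253 of 11034 (20.4%) differed, 911 (8.26%) higher and 1342 (12.2%) lower. With the spike-ins as scale 2 genes differed from D4 and 126 from D5, and without D6 replicate 1 the number for D4 was 270. The spike-in share was 0.547% to 1.43% of counts in D4 libraries and 0.484% to 1.03% in D5, against 0.582% to 0.755% in D6. With that scale this spread within groups enters the tests. With p-values adjusted over both pairs the numbers were 335 and 340 against D4 and 770 and 1225 against D5. Relative to mock, D4 had 1891 higher (16.7%) and 2030 lower genes (17.9%), together 34.6% of those tested, and D5 513 (4.58%) and 220 (1.97%), together 6.55%. Ttr was too low in all 3 groups to enter the fits between compounds. It stood at 1.19 ± 0.420 CPM with D6, 1.21 ± 0.664 with D4 and 0.991 ± 0.426 with D5 (SD, n = 4 each), and the differences in mean log2 CPM of 0.04 to D4 and 0.21 to D5 did not pass an exact permutation test (two-sided, p = 0.943 and 0.543, adjusted over both pairs 0.943 for each). The smallest p-value that test can give is 0.0286, and a p that misses the threshold does not show that the 3 compounds left the same amount of Ttr. The fits of D6, D4 and D5 against mock share the mock libraries, and their values are set side by side only.

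Seed-matched genes were among those that differed. With D5, 2.44% of 328 mer8 genes were lower than in mock, close to the 1.97% of all genes, and with D4 41.6% of 332, against 17.9% of all genes. In the direct comparison with D5, 89 of 326 mer8 genes (27.3%) were lower with D6 and 19 higher, against 12.2% and 8.26% of all genes. In that with D4, 7 of 327 (2.14%) were lower and 26 (7.95%) higher, against 1.97% and 2.21%. For mer7A1 genes, whose site leaves out position 8, 26 of 1104 were higher and 34 lower with D6 than with D4. Uhmk1 was at 57.7, 58.3, 59.4 and 55.8 CPM with D4 and at 307, 289, 279 and 320 CPM with D5. D6 lay between them, 0.56 ± 0.076 above D4 on the log2 scale (SE, edgeR adjusted p = 1.63e-05) and 1.81 ± 0.071 below D5 (edgeR adjusted p = 1.44e-14). Arpc5 likewise exceeded D4 by 0.41 ± 0.070 (SE, edgeR adjusted p = 3.69e-04), whereas C1galt1 differed from D4 by −0.10 ± 0.083 (edgeR adjusted p = 0.622). Otud4 was an exception in D5, with a log2 fold change against mock of −1.11, beside −1.19 with D6 and −1.28 with D4. Besides its mer8 site it has a stretch at guide positions 7 to 19, which leaves out g6, and their parts were not tested.

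Clic1, an intracellular chloride channel protein, had the lowest adjusted p of all genes tested between D6 and D4. It was at 185, 208, 187 and 192 CPM with D6, at 191, 207 and 224 CPM (lowest, median, highest) in mock, and at 41.7, 48.4, 41.4 and 45.8 CPM with D4. D6 exceeded D4 by 2.12 on the log2 scale (95% interval 1.98 to 2.26, edgeR adjusted p = 7.53e-19) and overlapped with mock (log2 fold change −0.10, edgeR adjusted p = 0.172). Unc119b, a trafficking factor for lipid-modified proteins that was chosen after its values were seen, behaved alike, at 95.1, 95.7, 92 and 99.8 CPM with D6 and 40.1, 40.7, 36.9 and 43.4 CPM with D4, a difference of 1.24 (95% interval 1.09 to 1.40, edgeR adjusted p = 3.10e-12). The stretches of both begin before g6, at positions 3 and 4, but most genes with such a start did not differ between D6 and D4. Snx27, with positions 4 to 17, had a log2 difference of −0.0055 (edgeR adjusted p = 0.986), and of 26 genes with a stretch from g6 or before in the 3′-UTR 4 were higher and 2 lower with D6, beside 2.21% and 1.97% of all genes. Kpna6, whose stretch begins at position 5, differed from D4 by 0.33 (95% interval 0.11 to 0.55, edgeR adjusted p = 0.102) and from D5 by −1.81 (95% interval −1.98 to −1.65, edgeR adjusted p = 1.59e-13). Cct2, from position 6, was at 207, 178, 192 and 193 CPM with D4, 0.73 below D6 on the log2 scale (edgeR adjusted p = 7.77e-10). For stretches from position 7, Cnot6, a deadenylase subunit, had log2 fold changes against mock of −0.61 with D6, −0.83 with D4 and −0.54 with D5, and Zfp850 had −0.48, −0.74 and −1.70. Others from position 7 went differently. Impad1 had −0.62 with D6, −0.07 with D4 and −0.04 with D5, and Rab34 had −0.74, −2.10 and −0.34.

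Further genes differed between D6 and D4 without a stretch of 12 bases. Ugt2b1, a hepatic glucuronosyltransferase, was at 7.51, 6.66, 5.43 and 7.71 CPM with D6, at 1.32, 0.790, 1.18 and 1.40 CPM with D4 and at 9.4, 13.2 and 16.4 CPM in mock, so that it was lower than mock with D6 (log2 fold change −0.91) and lower still with D4 (log2 difference 2.51 ± 0.30, SE, edgeR adjusted p = 2.08e-06). Slc38a10, an amino acid transporter, and Slc25a17, a peroxisomal carrier, chosen after their values were seen, were higher with D6 than with D4 by 1.2 and 1.23 on the log2 scale (edgeR adjusted p = 1.60e-12 and 5.24e-11) and close to mock with D6 (179.9 ± 17.6 against 170.7 ± 9.12 CPM and 77.2 ± 6.15 against 89.8 ± 7.94 CPM, SD, n = 4 and 8). Ugt2b1 belongs to a family of similar genes between which reads may be shared. Sdc4, a cell surface proteoglycan, went the other way, at 65.1, 46.8, 63.4 and 64.5 CPM with D6, 161, 120, 150 and 123 CPM with D4 and 147, 171 and 189 CPM in mock (log2 difference −1.21 ± 0.12, SE, edgeR adjusted p = 2.09e-05). Among the genes with the largest increases, Itgb4 (66.3, 84.2, 76.7 and 82.4 CPM with D4) was 1.05 lower with D6 on the log2 scale (edgeR adjusted p = 4.53e-09) and Marcks 0.52 lower (edgeR adjusted p = 2.55e-05). For both, D6 lay between D5 and D4. With the spike-ins as scale, the calls of Clic1 and Ugt2b1 between D6 and D4 remained, and those of Uhmk1, Arpc5, Cct2, Unc119b, Slc38a10, Slc25a17, Itgb4, Marcks and Sdc4 were lost. Of these, the log2 differences of the genes higher with D6 became larger (Unc119b 1.24 to 1.56, Cct2 0.73 to 1.08, Uhmk1 0.56 to 0.90) and those of the genes lower with D6 became smaller (Itgb4 −1.05 to −0.74).

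Against D5, the 4 largest decreases under the conditions for naming were those of Ltbp2, Lox, Igfbp7 and Elmod1. Ltbp2 was at 7.76, 13.3, 8.43 and 8.33 CPM with D5, 3.68 ± 0.36 above D6 on the log2 scale (SE, edgeR adjusted p = 4.62e-08), and Lox, Igfbp7 and Elmod1 followed with 3.39, 2.81 and 2.77. None of the 4 was lower than mock with D5. Nckap5 (log2 difference 1.99), Mturn (1.83), Cnksr1 (1.83) and Usp43 (1.70) were higher with D6 than with D5. Pi4k2b, at 168, 174, 162 and 195 CPM with D5, was 2.01 ± 0.088 lower with D6 (SE, edgeR adjusted p = 6.55e-14) and differed from D4 by 0.06 ± 0.10 (edgeR adjusted p = 0.841).

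Genes of cell division were the list with the most members lower. Of 36 genes, 22 were lower and 2 higher with D6 than in mock, with a median log2 fold change of −0.80, against 16.5% and 15% of all genes. Ccne1, the cyclin of S-phase entry, was at 5.39, 6.85, 5.63 and 9.03 CPM against 20.1, 24.3 and 26.8 CPM in mock (log2 fold change −1.82 ± 0.14, SE, edgeR adjusted p = 1.98e-12). Ccnb1, a mitotic cyclin, was at 6.93, 7.59, 7.44 and 11.1 CPM against 17.5, 20.4 and 30.8 CPM, and Ube2c, which acts in the exit from mitosis, at 11.2, 11.8, 12.1 and 20.5 CPM against 26.7, 34.4 and 46.4 CPM. The members that rose, Mcm3 and Cdt1, act in licensing of replication origins. With the spike-ins as scale 22 members were lower and 0 higher, so that the calls of Mcm3 and Cdt1 were lost. D6 replicate 4 stood closer to mock, with a summed level of the list of 2079 CPM against 1609, 1652 and 1506 CPM in the other 3 and 1982 to 2468 CPM in mock, and without it 25 members were lower and 1 higher. With D6 at 1 nM, 15 of 36 members were already lower than in mock and 0 higher (median −0.34), beside 1.28% and 0.842% of all genes. At 10 nM 21 were lower and 4 higher (median −0.70), beside 13.9% and 11.9%. With D5, 23 of 36 members were lower than in mock and 0 higher (median −0.50), beside 1.97% and 4.58% of all genes. In the direct comparison with D5, 9 of 35 were lower with D6 and 5 higher (median −0.21), beside 12.2% and 8.26% of all genes, and between D6 and D4 0 of 35 differed at an edgeR adjusted p under 0.05. In bulk RNA, fewer dividing cells and less of these mRNAs per cell cannot be told apart.

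Of 25 genes of the unfolded protein response, most of them chaperones and other proteins of the endoplasmic reticulum, 15 were lower and 1 higher, with a median log2 fold change of −0.24, against 16.5% lower and 15% higher of all genes. The changes were small and even. Canx, the lectin chaperone calnexin, was at 564, 566, 590 and 530 CPM against 795, 814 and 844 CPM in mock (log2 fold change −0.53 ± 0.047, SE, edgeR adjusted p = 4.25e-11), and Manf and Calr followed with −0.51 and −0.42. Of 24 genes of the integrated stress response, the programme driven by ATF4, 13 were lower and 3 higher (median −0.25). Slc7a11, the cystine importer, was at 143, 131, 142 and 95.3 CPM against 253, 328 and 381 CPM (log2 fold change −1.36 ± 0.14, SE, edgeR adjusted p = 1.68e-05), and it also has a mer7m8 site. Psat1, an enzyme of serine synthesis, and Nupr1 had log2 fold changes of −0.60 and −0.74. With D4, 13 of 25 and 8 of 24 members of the 2 lists were lower than in mock (17.9% of all genes) and 2 and 5 higher. With D5, 0 of 25 and 1 of 24 were lower (1.97% of all genes), and in the direct comparison with D5 15 and 13 members were lower with D6 and 0 higher, beside 12.2% of all genes.

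Of 25 targets of p53, 11 were higher and 3 lower (median 0.19), beside 15% and 16.5% of all genes. The growth-arrest gene Btg2 was at 278, 244, 281 and 220 CPM against 83.3, 112 and 115 CPM in mock (log2 fold change 1.27 ± 0.073, SE, edgeR adjusted p = 3.31e-13), the spindle-associated Psrc1 had a log2 fold change of 1.28 and Ddit4l, an inhibitor of mTOR, 1.03. The 3 lower members were Ccng1, Trp53inp1 and Perp. With the spike-ins as scale 3 members were higher and 3 lower, beside only 241 genes higher of 11345 tested. The median was then 0.03, which is 0.19 above that of all genes, against 0.18 above with TMM. Of 36 lysosome and autophagy genes 14 were higher and 4 lower (median 0.10), and of 29 genes of RNA silencing 9 were higher and 2 lower (median 0.09), but with the spike-ins 0 members of either list were higher and the medians were −0.06 and −0.07. Relative to the median of all genes, both lists stayed higher by 0.09 and 0.08 on either scale. Tnrc6a, which encodes the GW182 scaffold that binds Argonaute, was at 227, 192, 210 and 198 CPM against 125, 144 and 155 CPM. Dicer1, at 114, 109, 101 and 111 CPM, lay above a mock range of 80.7 to 99.9 CPM by little. Gabarapl1, of the autophagosome, was at 154, 170, 141 and 171 CPM against 100, 111 and 117 CPM, while Asah1, a lysosomal ceramidase, had a log2 fold change of −0.52. Of these, only the call of Asah1 held with the spike-ins.

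Secreted liver proteins changed gene by gene. Of 28 coagulation genes 10 were lower and 1 higher (median −0.07), beside 16.5% lower and 15% higher of all genes, and without D6 replicate 4 7 were lower and 3 higher. F13b, a subunit of factor XIII, was at 4.04, 3.33, 4.23 and 3.01 CPM against 11.1, 12 and 15.5 CPM in mock, and F11, coagulation factor XI, at 11.4, 8.89, 13.3 and 9.03 CPM against 24.3, 28.0 and 35.1 CPM, with log2 fold changes of −1.76 ± 0.17 and −1.43 ± 0.13 (SE, edgeR adjusted p = 5.71e-10 and 5.43e-11). Fgg, the fibrinogen gamma chain, was at 107, 105, 105 and 102 CPM against 177, 219 and 226 CPM. All D6 libraries of the 3 lay below mock. With D5, Fgg was instead higher than in mock (log2 fold change 0.44), and D6 was 1.44 ± 0.076 below D5 (SE, edgeR adjusted p = 9.88e-13). Among 25 acute-phase genes 5 were higher and 7 lower (1 and 6 with the spike-ins), and the iron reductase Steap4 was at 32 to 46.1 CPM (4 libraries) against 18.2, 22.6 and 28.1 CPM. Of 22 complement genes 2 were higher and 5 lower, with C9, a component of the membrane attack complex, at −0.88 and Mbl2, a mannose-binding lectin, at −0.52. Without D6 replicate 4 it was 5 higher and 3 lower, and the median of 0.01 turned to −0.15 with the spike-ins.

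Metabolic genes moved in both directions. Of 43 genes of cytochrome P450s and conjugating enzymes 8 were higher and 10 lower, near the shares of all genes (15% and 16.5%). Cyp2c70, which hydroxylates bile acids in the mouse and has a mer7A1 site, was at 53.7, 61.1, 41.2 and 51.9 CPM against 133, 155 and 174 CPM in mock (log2 fold change −1.56 ± 0.084, SE, edgeR adjusted p = 9.80e-15). Cyp2e1, an ethanol-oxidizing enzyme of hepatocytes, was at 11.2, 10.7, 13.1 and 21.2 CPM against 31.0, 34.8 and 43.6 CPM. Of 26 cholesterol synthesis genes 9 were lower and 1 higher, led by the sterol carrier Stard4 (log2 fold change −0.69) and the desaturase Sc5d (−0.38). Of 25 genes of fatty acid and triglyceride synthesis 6 were higher (9 without D6 replicate 4, and 1 with the spike-ins), with Acacb, the carboxylase that makes malonyl-CoA at mitochondria, at 43.1 to 61.3 CPM (4 libraries) against 15.9, 20.9 and 25.5 CPM. Another 6 were lower (5 with the spike-ins), with Agpat2, an acyltransferase of triglyceride synthesis with a mer7A1 site, at 28.1, 25.9, 27 and 22.2 CPM against 63.3, 65.0 and 73.7 CPM. Of 30 targets of NRF2 10 were higher and 8 lower, with Hmox1, heme oxygenase, at 418, 443, 395 and 381 CPM against 128, 202 and 233 CPM, and of 36 genes of the urea cycle and amino acid breakdown 10 were higher and 5 lower. The medians of these 2 lists, 0.13 and 0.10, turned to −0.03 and −0.06 with the spike-ins. Relative to the median of all genes they were 0.12 and 0.09 with the spike-ins and 0.11 and 0.09 with TMM. The counts then were 2 higher and 7 lower for the NRF2 targets, and 4 higher and 4 lower for the other list.

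Genes of innate immunity differed by list. Of 47 interferon-response genes 3 were higher and 5 lower with D6 at 50 nM (median −0.11), beside 15% and 16.5% of all genes, and without D6 replicate 4 it was 6 higher and 3 lower, with a median of 0.07. With the spike-ins as scale it was 1 higher and 8 lower, with a median of −0.27. At 10 nM, however, 20 of the 47 were lower than in mock and 1 higher (median −0.35), beside 13.9% and 11.9% of all genes. At 1 nM 0 members differed (median 0.04), and at 0.1 nM 1 was lower and 0 higher (median −0.26), beside 1.28% and 0.0443% of all genes lower. With D4 at 50 nM 14 were lower and 2 higher, beside 17.9% and 16.7% of all genes. The number of lower members was thus higher at 10 nM than at 50 nM. At 50 nM of D6 the largest change was that of Gbp7, which has a mer8 site. Tap1, which loads peptides for antigen presentation, was at 38.3, 32.4, 40.6 and 16.7 CPM against 12.9, 18.1 and 24.9 CPM in mock, with overlapping ranges. Of 19 NF-kB targets and chemokines 2 were higher and 8 lower (median −0.18), a larger share lower than among all genes, with Vcam1, an adhesion molecule for leukocytes, at 24.1, 23.7, 25.2 and 22.8 CPM against 36.3, 42.5 and 48.5 CPM, and the chemokine Ccl20 (log2 fold change −1.37).

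Among markers of cell types, 6 of 23 hepatocyte markers were lower and 1 higher, beside 16.5% and 15% of all genes, the lower ones led by Cyp2e1, Apob (log2 fold change −0.70) and Asgr2 (−0.64). Without D6 replicate 4, 3 were lower and 2 higher. Of 6 cholangiocyte markers tested of 9, Epcam, Krt7 and Krt19 were higher and 0 lower. Their summed level was 264, 277, 267 and 288 CPM with D6 and 195 to 219 CPM in mock, most of it Krt19, a keratin, at 159, 162, 162 and 172 CPM against 106, 112 and 133 CPM. Krt19 did not pass with the spike-ins as scale, whereas Epcam and Krt7 did, and 1 member was then lower. Without D6 replicate 4, 3 members were higher and 1 lower. With D5 at 50 nM 4 of the 6 were higher than in mock and with D4 2 of 6, and 0 lower, beside 4.58% and 16.7% of all genes higher. The part of other cell types in these increases was not tested. Mitochondrially encoded genes took 3.52% to 3.74% of the gene counts in the D6 libraries and 2.98% to 3.34% in mock, without overlap, and 6 of the 7 tested were higher (median log2 fold change 0.20), though 0 with the spike-ins. The other 6 of 13 were listed at 0 in every library. Of 80 cytosolic ribosomal protein genes 10 were lower and 1 higher, and without D6 replicate 4 29 were lower and 0 higher. With the spike-ins as scale 0 of them were lower and 0 higher. Of 79 nuclear-encoded genes of the respiratory chain 4 were lower and 4 higher, without D6 replicate 4 it was 6 lower and 0 higher, and the median of 0.04 turned to −0.12 with the spike-ins.

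**Figure D5:**
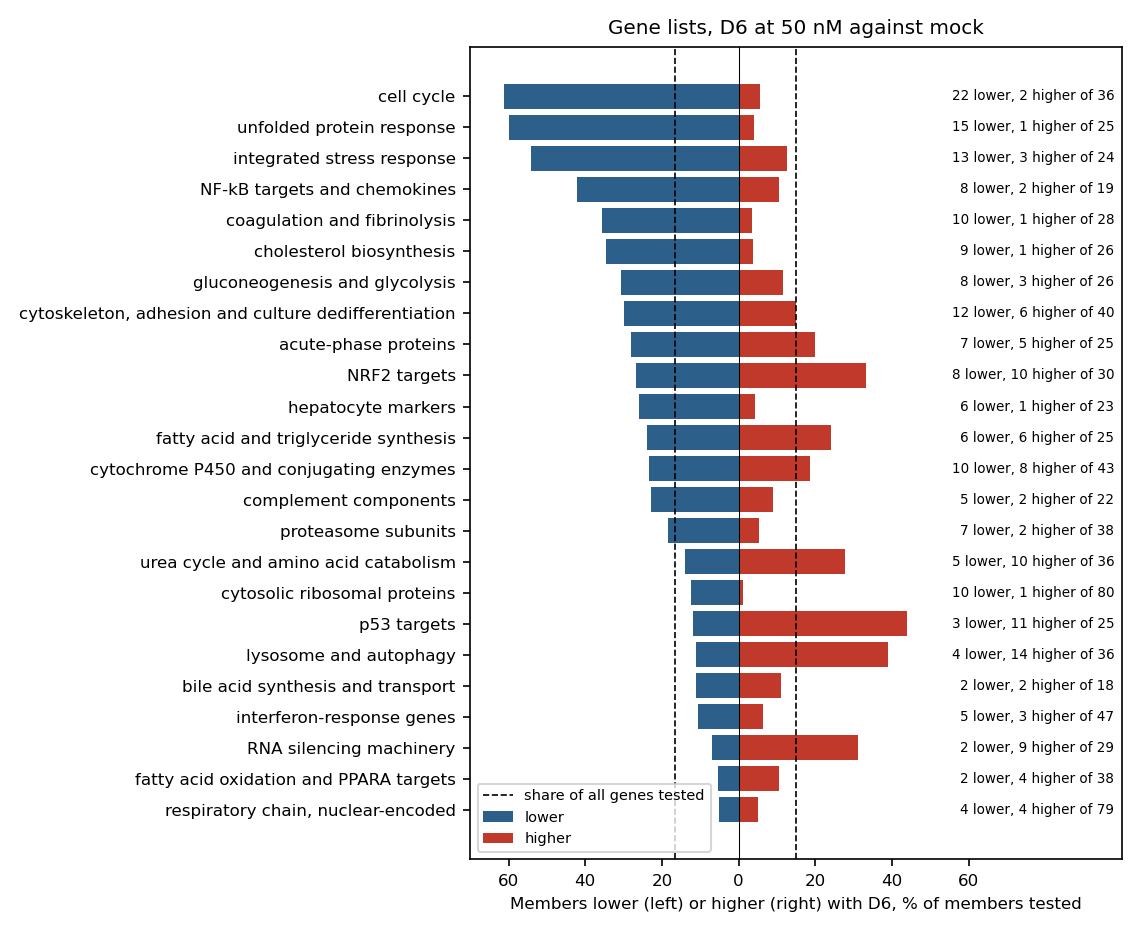
Share of the tested members of 24 gene lists that were lower (blue, left) or higher (red, right) with D6 at 50 nM than in mock at an edgeR adjusted p under 0.05, in percent, with the counts at the right and the shares of all genes tested (16.5% lower, 15% higher) as dashed lines. Among the 24 lists drawn, cell cycle, unfolded protein response and integrated stress response have the highest shares of lower members, and p53 targets and lysosome and autophagy the highest shares of higher members. Of all 30 lists, mitochondrially encoded genes (6 of 7) and cholangiocyte markers (3 of 6) had larger shares of higher members.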

How the data were processed

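Counts of uniquely aligned reads per gene were deposited by the authors without normalization, for 2 sequencing runs per library. Per the paper and the submitters' processing notes, RNA was captured with magnetic beads, libraries were made with a stranded total RNA kit, reads were filtered with fastq-mcf, aligned to GRCm39 with STAR and counted with featureCounts 2.0.2, and DESeq2 1.32.0 was used for fold changes. The authors' tables of those comparisons hold fold changes and p-values, which were not used, and served only to pair gene identifiers with symbols.

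Here both runs of a library were added up. Between runs the chi-square statistic divided by its degrees of freedom was 0.998 to 1.06, within sampling noise, and between 64 pairs of replicates it was 1.67 to 5.86. Of 104 libraries, 32 were read. Library sizes and tests did not include the 92 ERCC spike-ins. Their share was 0.582% to 0.755% of counts with D6 at 50 nM and 0.453% to 0.790% in mock. It varied more with D4 (0.547% to 1.43%) and D5 (0.484% to 1.03%) at 50 nM. GENCODE for GRCm39 holds 54749 of the 55416 genes counted. A gene at 1 CPM has about 5 counts in these libraries, so low levels are imprecise.

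The quasi-likelihood test of edgeR 4.0.16, under R 4.3.3, was the main test (TMM, filterByExpr, glmQLFit with robust estimation, glmQLFTest), with only the 2 groups compared in each fit and Benjamini-Hochberg adjustment over all genes tested. The SE of a log2 fold change is its absolute value divided by the square root of the test's F statistic. Intervals of 95% rest on the estimate and this SE, and both may be too narrow for genes with few counts. Differences of Ttr between compounds were tested by exact permutation of log2 CPM with a prior count of 2. Other steps ran under Python 3.11.15 (scipy 1.17.1, pandas 2.3.3, numpy 2.4.6). Tested on simulated counts of 11240 genes with the library sizes of D6 and mock, the fit recovered 97.5%, 97.5% and 64.1% of genes lowered by 2, 1 and 0.5 on the log2 scale and called 0.0362% of unchanged genes.

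Seed matches were searched in the longest annotated 3′-UTR, and complementary stretches in the coding sequence and UTRs, against the 23-base site in the Ttr transcript. Named genes are protein-coding, have an edgeR adjusted p under 0.05, all 4 D6 libraries on one side of all 8 mock libraries and a mean of at least 2 log2 CPM in the higher group, of which the 12 with the largest decrease and increase and the 8 such mer8 genes were taken, with Ttr, Rbp4, Alb and Gapdh, the 3 members of each list that changed most, and 4 genes per direction between compounds. The 30 gene lists, the members and the comparisons were chosen with earlier results of these data known, and lists are described by counts and medians with no test of the list. Other members and genes with complementary stretches were named after their values were seen.

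As alternatives, libraries were left out one by one, the replicate number entered as a block, the 7 groups shared a single fit, and each sequencing run was used alone. Normalization was changed to RLE or to spike-in totals, the filter to at least 1 count or to at least 10 counts in every library of a group, and the test to DESeq2 1.42.0 with a prior on fold changes. Seed sets were also taken from the canonical 3′-UTR and over genes with a mean of at least 5 CPM. Leaving out D6 replicate 4 for the list counts, and genes with a seed site for the stretches, was chosen after seeing the data. Experiments other than RNA sequencing were not analysed here. The values of some genes are not reported here.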

Additional observations from a re-analysis of the deposited data

Results flagged for a closer look

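In 5 of 96 groups of 4 or 8 libraries of named genes, 1 library stood apart from the others by Dixon's criterion, and chance gives about 1 in 20. D6 replicate 2 was the highest of its group for Itgb4, with 42.4 CPM against 35.8 to 35.9 CPM in the other 3, and for Nckap5, with 7.04 CPM against 4.89 to 5.23 CPM. It was the lowest for Sdc4, with 46.8 CPM against 63.4 to 65.1 CPM. In mock, replicate 7 was the highest for Cldn6, with 2.997 CPM against 0.194 to 1.37 CPM, and replicate 5 the lowest for C1galt1, with 134 CPM against 155 to 171 CPM. Without the library that stood apart, the call of each of these 5 genes against mock, and that of Sdc4 against D4, kept its direction and its side of the threshold.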

How the results depend on the processing

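No result reversed its direction past the threshold under any alternative. Among the 3572 genes called for D6 against mock, 90.9% were also called by DESeq2 and 99.9% with RLE size factors, and no gene called by both changed sign. Spike-in totals as library sizes changed most: 1602 genes against mock (241 higher), 126 against D5 (47 higher, 79 lower) and 2 against D4 (2 higher, 0 lower), with 2 mer8, 12 mer7m8 and 22 mer7A1 genes higher than in mock. The spike-ins varied between libraries, and the cause was not tested. With the first sequencing run alone 287 genes differed from D4 (157 higher, 130 lower), and with the second alone 305 (138 lower), fits with fewer counts. With canonical 3′-UTRs the medians were −0.15 (mer8), −0.0616 (mer7m8) and −0.0786 (mer7A1).

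With each library left out in turn, 3039 to 3608 genes differed from mock (1362 to 1703 higher, 1674 to 1905 lower), 1775 to 2392 from D5 (621 to 976 higher, 1139 to 1416 lower) and 270 to 516 from D4 (147 to 260 higher, 123 to 256 lower, the lowest without D6 replicate 1), and Ttr ranged from −9.31 to −8.95. Without D6 replicate 4, 112 mer8 genes were lower and 25 higher, 176 and 87 of mer7m8, and 294 and 137 of mer7A1.

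Libraries with the same replicate number did not deviate together (correlations of deviations of D6 and mock with the same number 0.068, −0.027, −0.041 and 0.123, of D6 and D5 0.014, 0.071, 0.079 and 0.173, and of D6 and D4 −0.063, 0.077, −0.104 and −0.169). The numbers follow the order of the samples, and a pairing in another order was not fitted. With the replicate number as a block, 3318 genes differed from mock (1553 higher, 1765 lower), 2698 from D5 and 334 from D4. Mock replicates 5 to 8 have no D6 library of the same number and do not inform the difference in that fit. Of the genes named, 31 lost their call with the spike-ins, 12 with the block, 4 with DESeq2 and 4 with all genes tested. The first sequencing run alone lost 9 and the second alone 6. Over the fits with 1 library left out, 55 calls of named genes were lost and 5 gained, counted per fit. The calls against mock that were lost with the spike-ins included those of Rbp4, Alb, Krt19, Tnrc6a, Dicer1, Gabarapl1, Mcm3 and Cdt1. Every named call against D4 was also lost except those of Clic1 and Ugt2b1, although the log2 differences of the genes higher with D6 grew. Rbp4 was also lost with the block, and Tap1 without D6 replicate 1 or 3. Genes near 1 CPM rest on about 5 counts a library, and residual Ttr on 4 to 9.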
